A study of Homo sapiens with 8 samples.

Results

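The hypoxia and reoxygenation (H/R) cultures are the stressed, untreated arm of a study that asked whether sheets of brown adipocytes (BA) protect human iPS cell-derived cardiomyocytes (hiPS-CMs). Their 4 RNA sequencing libraries, of 8 in the series, are described here on their own, by level and by spread between replicates. The other 4 libraries, H/R+BA, had BA sheet conditioned medium during reoxygenation and are not compared. The cells spent 12 h in serum-free DMEM with 0.3 g/L glucose at 1% O2 and then 12 h in DMEM with 10% FBS under reoxygenation. No library of cells kept free of H/R is used here, so no level below is a response to H/R. The line, a human iPS cell line, is written 235G1 in the sample labels and 253G1 in the methods. It was kept on growth-arrested mouse embryonic fibroblasts. Cardiac differentiation ran in suspension with growth factors (activin A, BMP4, VEGF and bFGF) and with the Wnt inhibitors IWP-2 and IWR-1, and the methods report no sort of the cells before RNA extraction. Every library comes from this 1 line, and beyond line, treatment and a replicate number from 1 to 4 nothing says whether the replicates were separate differentiations. Technical and biological sources of the spread between them cannot be told apart.

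A gene counted as expressed where it reached at least 1 FPKM (fragments per kilobase of transcript, scaled to the size of the library, so a level per length) in each of the 4 libraries. This held for 13231 of the 60658 genes listed, of which 12002 are protein-coding. Libraries had 39854257 to 48898147 reads, of which 95.4% to 96.2% were mapped, and 14075 to 14256 genes at 1 FPKM or more. Replicate 3 was the shallowest. A gene was called wide where its highest and lowest library differed by 1 or more on the log2(FPKM + 1) scale, that is, 2-fold after adding 1 FPKM to each value. With 1 group the data hold no contrast, so all values are descriptions and no p-value is given. Where 4 values follow each other, they stand in the order of replicates 1, 2, 3 and 4.

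Cardiomyocytes contract through sarcomeres, in which thick filaments of myosin pull on thin filaments of actin that troponin and tropomyosin open when calcium rises. Cells made from iPS cells are immature and carry fetal and adult, and atrial and ventricular, forms of these proteins side by side. Directed differentiation passes through mesendoderm, the common source of heart and gut lineages, and cultures can hold cells of other lineages.

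The cultures had the transcripts of cardiomyocytes at very high level. TNNT2, cardiac troponin T, had 2207, 1298, 2095 and 1556 FPKM. ACTC1, the cardiac actin, had 3329, 2067, 3594 and 2211 FPKM. NPPA, atrial natriuretic peptide, had 3588, 2121, 4379.7 and 2763 FPKM, with the highest value in replicate 3 and the lowest in replicate 2. All 5 fixed markers were lower in replicates 2 and 4 than in replicates 1 and 3. MYH6, the fast α-myosin heavy chain, had 449, 269, 441 and 236 FPKM. MYH7, the slow β-chain, had 636, 289, 640.0 and 318 FPKM, a 2.22-fold range between the highest and the lowest library. Of the 5 markers MYH7 and NPPA were wide, NPPA neither without replicate 2 nor without replicate 3. MYH6 and MYH7 are neighbours on the minus strand of chromosome 14 (GRCh38, chr14:23381982-23408273 for MYH6 and chr14:23412740-23435660 for MYH7) and are close in sequence, so reads shared between them could be split by the counting.

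**Figure D1:**
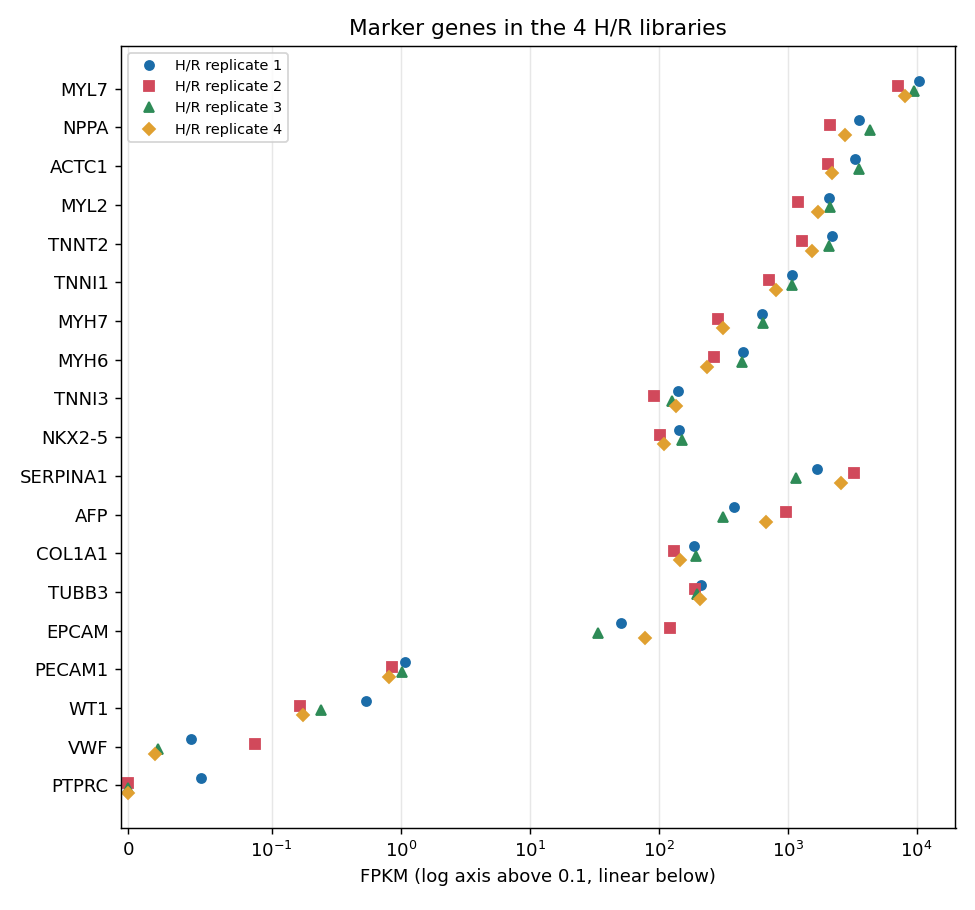
FPKM of 19 marker genes (rows) in the 4 H/R libraries (symbols), on an axis that is logarithmic above 0.1 FPKM. Cardiac genes from MYL7 down to NKX2-5 lie near or above 100 FPKM, SERPINA1 and AFP lie as high as sarcomere genes, and VWF and PTPRC lie under 0.1 FPKM in every library.

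Of the 22 sarcomere genes listed, 21 passed 1 FPKM in all libraries. Their summed FPKM was 19326, 12379, 19185 and 14252. TPM1, tropomyosin, led the list at 4759, 3227, 4558 and 3781 FPKM, and TTN, the giant spring protein titin, had 44.9, 29.5, 51.97 and 30.8 FPKM. TNNC1, the calcium-binding troponin subunit, had 1630.3, 1030.0, 1530.2 and 1148 FPKM, and ACTN2, the α-actinin of the Z-disc, had 795, 493, 809 and 597 FPKM. MYOM2, an M-band protein of mature muscle, was the member that did not pass, at 0.966, 0.527, 0.312 and 0.426 FPKM.

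Regulators of the heart lineage were present. NKX2-5, a homeobox factor of heart progenitors and myocytes, had 145, 102, 152 and 111 FPKM, and GATA4, a zinc finger factor, had 109, 81.1, 118 and 88.1 FPKM. Of 20 cardiac transcription factors 16 passed. ISL1, a marker of second heart field progenitors, averaged 0.392 FPKM, and SHOX2, a sinus node factor, was at 0 in replicates 1 and 4 and at 0.0171 and 0.0971 FPKM in replicates 2 and 3.

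Genes of calcium handling followed with 15 of 17 passed. PLN, phospholamban, the brake of the sarcoplasmic calcium pump, had 247, 174, 335 and 179 FPKM. ATP2A2, the pump itself, had 179, 142, 185 and 145 FPKM, and RYR2, the release channel, had 11.3, 7.61, 14.4 and 6.76 FPKM. Only 8 of 17 ion channel and connexin genes passed. GJA1, connexin 43, led them at 81.8, 85.1, 81.5 and 103 FPKM, and HCN4, the pacemaker current channel, had 15.7, 11.2, 17.5 and 10.7 FPKM. KCNJ2, the main inward rectifier of adult ventricle, had 0.194, 0.196, 0.137 and 0.292 FPKM and did not pass.

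Shares within a library do not depend on the scaling between libraries. MYH6 made up 41.4%, 48.3%, 40.8% and 42.6% of the sum of MYH6 and MYH7, with a mean of 43.3% ± 3.41 (SD, n = 4). TNNI1, the fetal slow troponin I, made up 88.0% ± 1.66 (SD, n = 4) of TNNI1 and TNNI3, the adult cardiac form. MYL7, the atrial regulatory light chain, made up 83.3% ± 1.66 (SD, n = 4) of MYL7 and MYL2, its ventricular counterpart. MYL7 had 10441, 7164, 9579 and 8129.7 FPKM, the highest of any nuclear gene, and MYL2 had 2083, 1206, 2143 and 1714 FPKM. The TNNI1 share ran from 85.6% to 89.4% and the MYL7 share from 81.7% to 85.6% between libraries, and the MYH6 share spread more widely, with its highest value in replicate 2.

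Genes of some other cell types were also expressed. Of the endoderm and liver list 17 of 18 members passed. SERPINA1, α1-antitrypsin, a protease inhibitor of hepatocytes, had 1692, 3282, 1153 and 2596 FPKM, which by mean put it 27th of all expressed genes, ahead of TNNT2. In replicates 1 and 3 TNNT2 was the higher. AFP, α-fetoprotein of fetal liver and yolk sac, had 384, 968, 317 and 674 FPKM, while ALB, albumin of mature hepatocytes, had 10.4, 17.3, 9.81 and 15.1 FPKM. HNF4A, a master factor of hepatocytes, had 4.77, 10.2, 3.65 and 6.04 FPKM, and SOX17, an early endoderm factor, had 7.11, 4.85, 7.88 and 7.71 FPKM. In bulk RNA, fewer cells of a type and less RNA per cell cannot be told apart.

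Stromal transcripts were present too, with 13 of 16 fibroblast genes passed. COL1A2, a chain of type I collagen, had 242, 158, 246 and 212 FPKM, and COL3A1 had 219.7, 156, 250.4 and 227 FPKM, while TCF21, a factor of cardiac fibroblasts, averaged 0.025 FPKM and DPT was at 0 in all 4 libraries. Of the epicardial list 5 of 13 passed, led by the simple epithelial keratins KRT8 at 2246, 1856, 1958 and 1894 FPKM and KRT18 at 1760.0, 1483, 1582 and 1587 FPKM. WT1, which defines epicardium, averaged 0.28 FPKM. The neural list passed with 7 of 16, led by TUBB3, a neuronal tubulin that other cells also make, at 211, 191, 197 and 209 FPKM and by NES, nestin, at 192, 139, 185 and 146 FPKM, and SOX1 and NEUROD1 were at 0 throughout.

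Endothelial genes were partly expressed, with 11 of 22 passed. EGFL7, an angiogenic secreted protein, led them at 55.5, 65.6, 46.9 and 50.9 FPKM, and KDR, a VEGF receptor, had 14.5, 8.58, 14.9 and 16.01 FPKM, while PECAM1 and VWF averaged 0.944 and 0.0429 FPKM. Few genes of blood and fat cells passed. Of 14 leukocyte genes 2 passed, CD68 and LYZ, and PTPRC, the pan-leukocyte CD45, averaged 0.0127 FPKM. None of 11 erythroid genes and 1 of 10 adipocyte genes passed, the adipocyte one being PPARG at 4.76, 8.59, 3.45 and 6.73 FPKM, with ADIPOQ, adiponectin, at practically 0 in all 4 libraries. In the pluripotency list 5 of 15 passed, among them POU5F1 at a mean of 2.33 FPKM, while NANOG averaged 0.00116 FPKM. MYH1 and MYF5 of skeletal muscle were at 0 in all 4 libraries.

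The top of the ranking was held by the mitochondrial genome. Of the 50 genes with the highest mean FPKM, 16 carry the MT prefix of mitochondrial genes and their nuclear copies, 5 encode ribosomal proteins and 34 are protein-coding genes outside the mitochondrial genome. These 50 genes held 30.5%, 27.1%, 34.1% and 28.8% of the summed FPKM in replicates 1 to 4. MT-CO2, a subunit of cytochrome c oxidase, had 13873, 10542, 18086 and 13561 FPKM. MT-ATP8, a subunit of ATP synthase, ranked first at 17072, 10575, 21975 and 12953 FPKM, and its frame lies partly over MT-ATP6, so reads of the overlap belong to both. It is short, and on the authors' normalized counts, which are not divided by length, it had 35725, 24363, 47475 and 33123. MT-CO2 had 292373, 226524, 385476 and 296822, so the first rank of MT-ATP8 holds on FPKM and not on these counts. The 13 mitochondrially encoded mRNAs together made up 15.8%, 12.3%, 19.3% and 14.7% of the summed FPKM. All 13 were lowest in replicate 2, against 31.0% of all expressed genes, and the share was highest in replicate 3. The nuclear genes of oxidative phosphorylation spread less. Their median SD of log2(FPKM + 1) was 0.098, against 0.331 for the 13 mitochondrially encoded mRNAs and 0.130 over all expressed genes. All 46 passed and none was wide, against 1 of the 13 mRNAs and 2.57% of all expressed genes. At so low a share, none wide of 46 says little. The sums of the nuclear genes were 7873, 7073, 7824 and 7643.

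Outside the mitochondrial genome the highest protein-coding genes were MYL7, GAPDH, TPM1, NPPA, TMSB10, ACTC1 and ALDOA. GAPDH and ALDOA are enzymes of glycolysis, at 7463, 6269, 7082 and 6318 FPKM and 2963, 2373, 2724 and 2532 FPKM, and TMSB10, thymosin β10, which binds actin monomers, had 3174, 3267, 2848 and 3238 FPKM. Among the hypoxia-inducible genes 24 of 25 passed and none was wide, against 2.57% of all expressed genes. Their median SD of log2(FPKM + 1) was 0.187, against 0.130 over all expressed genes. BNIP3, a mitophagy receptor, had 174, 168, 169.9 and 171 FPKM. NPPB, B-type natriuretic peptide, had 2329, 1716, 1919.9 and 1579 FPKM, and CCL2, a monocyte-attracting chemokine, had 569, 686, 676 and 674 FPKM.

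Some very short transcripts ranked high on few fragments, as the authors' normalized counts show. These are a signal scaled by 1 factor per library, and 74.8% to 76.4% of their values are whole multiples of 1 fragment. MT-TY, the mitochondrial tyrosine tRNA, ranked 13th by mean FPKM on 1.99, 6.61, 2.44 and 1.91 normalized counts. SNHG25, a small nucleolar RNA host gene, had 74.6, 2.65, 2.53 and 97.3 FPKM on 16.9, 13.2, 12.2 and 14.9 normalized counts, so that its levels differ 38.4-fold where its counts do not differ 1.5-fold. Why its FPKM and counts part was not tested.

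The spread between replicates was small for most genes. The SD of log2(FPKM + 1) over the 4 libraries had a median of 0.130, and the upper quartile was 0.198. Of the expressed genes 340 were wide, 2.57%, and 289 of these are protein-coding. Of the 340, 271 had at least 100 normalized counts in every library and 29 had under 30 in some library. Without replicate 2 there were 158 wide genes and without replicate 3 there were 161, against 298 without either of the others.

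**Figure D2:**
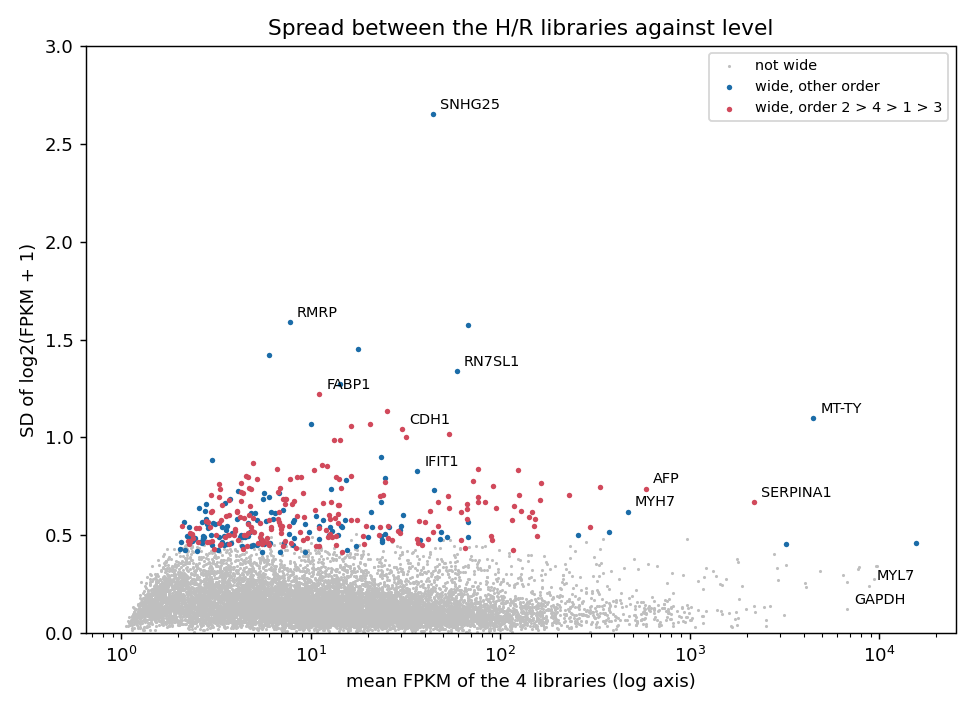
SD of log2(FPKM + 1) against mean FPKM (log axis) for the expressed genes, each a point. Grey points are not wide, red points are wide with the order replicate 2 > 4 > 1 > 3, and blue points are wide in another order. Most wide genes lie at SDs of 0.4 to 1, and AFP and SERPINA1 are wide at high level.

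Steady genes at high level included TPM4, a tropomyosin of non-muscle cells, at 299, 296, 298 and 299 FPKM, PDIA6, a protein disulfide isomerase, at 116, 115, 116 and 117 FPKM, and DDX5, an RNA helicase, at 396, 394, 386 and 395 FPKM. Their SDs of log2(FPKM + 1) were 0.0063, 0.0079 and 0.018. Of the 79 cytosolic ribosomal protein genes none was wide, against 2.57% of all expressed genes. Their median SD was 0.109, against 0.130 over all expressed genes, and 76 were lowest in replicate 3, against 30.8%.

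The wide genes followed 1 order more often than all expressed genes did. Of the 340, 222 were highest in replicate 2, which is 1.68% of all expressed genes, and 231 were lowest in replicate 3. Replicate 2 was highest and replicate 3 lowest in 65.3% and 67.9% of wide genes, and in 25.4% and 30.8% of all expressed genes. The full order of replicate 2 above 4 above 1 above 3 held in 205 wide genes (60.3%), against 10.1% of all expressed genes. Of the 30 protein-coding genes with the largest SD, clone names left out, 27 had it. By pairs, replicates 2 and 3 had 259 genes 2-fold apart and replicates 2 and 4 had 23. Replicate 3 had 39854257 reads, against 47378189 to 48898147 in the others, and the part of depth in this order was not tested.

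**Figure D3:**
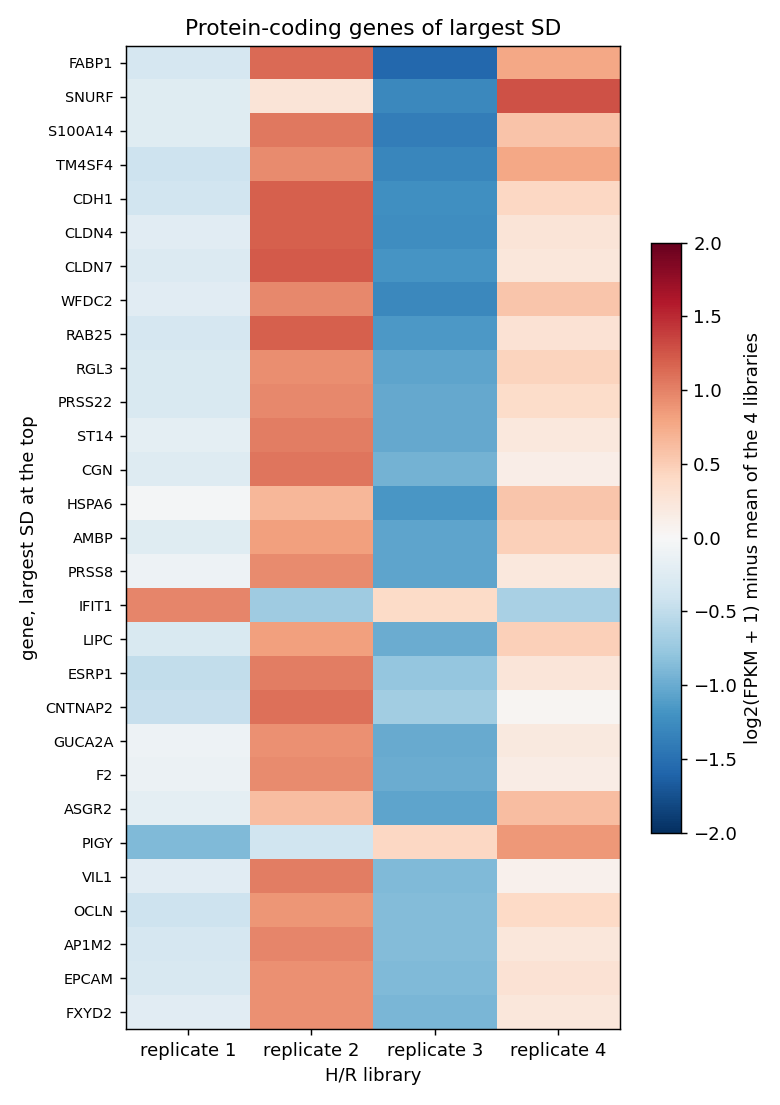
Deviation of log2(FPKM + 1) from the mean of the 4 libraries (colour) for 29 of the 30 protein-coding genes of largest SD (rows) in each H/R library (columns). All of those drawn but SNURF, IFIT1 and PIGY are highest in replicate 2, then 4, then 1, and lowest in replicate 3.

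Many of the 30 protein-coding genes of largest SD are known from epithelia or from liver. FABP1, the liver fatty acid-binding protein, had the largest SD of any protein-coding gene, 1.22, with 6.61, 20.2, 2.24 and 15.4 FPKM. CDH1, E-cadherin of adherens junctions, had 18.9, 58.6, 10.1 and 33.7 FPKM, so that replicate 2 stood 5.80-fold over replicate 3. The tight junction genes CLDN4 and CLDN7 had 38.3, 105, 18.4 and 54.1 FPKM and 21.7, 62.9, 11.1 and 31.2 FPKM, and OCLN, occludin, had 4.89, 13.4, 3.30 and 9.34 FPKM. EPCAM had 51.1, 122, 34.1 and 78.4 FPKM. In each of these genes replicate 2 was highest, replicate 4 second and replicate 3 lowest. The proteases ST14 (matriptase) and PRSS8 (prostasin), the epithelial GTPase RAB25, the junction protein CGN and the splicing factor ESRP1 had SDs of 0.80 to 0.99 in the same order, as did TM4SF4, S100A14, WFDC2, PRSS22, RGL3, CNTNAP2, GUCA2A, VIL1, FXYD2 and AP1M2, with SDs of 0.77 to 1.07. SNURF and PIGY, the genes in another order beside IFIT1, share transcripts with a neighbouring gene, and how their reads were split is uncertain.

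To see how far this reached, a list of epithelial junction and keratin genes and a list of hepatocyte secreted and surface proteins were written after these values were seen, and their counts are no independent evidence. Of the epithelial list 30 of 33 passed and 21 were wide. Of the hepatocyte list 28 of 38 passed and 18 were wide. Of all expressed genes 2.57% were wide. The endoderm and liver list, also chosen with earlier results of these data known, had 11 wide of 17 passed and a median SD of 0.543, against 0.130 over all expressed genes. Its summed FPKM was 2555, 5164, 1846 and 3943, 2.80-fold from replicate 3 to replicate 2, and 15 of the 17 had the order of replicate 2 above 4 above 1 above 3. Without replicate 2 or replicate 3 the counts of wide genes were 15 and 15 for the epithelial, 12 and 12 for the hepatocyte, and 5 and 4 for the endoderm and liver list. The most abundant epithelial members were not among the wide ones, since KRT8 and KRT18 had SDs of 0.12 and 0.10.

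At the SERPINA, fibrinogen and ALB-AFP loci all expressed members had this order. In the SERPINA cluster of chromosome 14 (GRCh38, chr14:94280460-94624055) SERPINA1, SERPINA3, SERPINA4, SERPINA5 and SERPINA6 were all wide, though SERPINA1 and SERPINA6 not without replicate 3 and SERPINA6 not without replicate 2. SERPINA4 and SERPINA5 overlap on the plus strand, so how reads were split between them is uncertain. SERPINA3, α1-antichymotrypsin, had 88.3, 185, 65.99 and 165 FPKM under 1 of the 2 overlapping identifiers that bear its name. On chromosome 4 the fibrinogen genes FGB, FGA and FGG (chr4:154563011-154612967) held 2 wide members, FGB and FGA, of which neither was wide without replicate 2 and FGA not without replicate 3, with 26.1, 59.3, 24.6 and 38.96 FPKM for FGB. TF, the iron carrier transferrin, had 67.97, 149, 44.1 and 104 FPKM and AMBP, the precursor of α1-microglobulin, had 93.3, 197, 52.8 and 155 FPKM.

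The upstream windows of such genes were searched for a liver motif. HNF1 factors of liver bind sites built on the half-site GTTAAT. It was found, on either strand, in the 250 bases before a RefSeq start (GRCh38) for 6 of the 11 expressed genes of the endoderm and liver list that the promoter table holds, and for 5.08% of 9511 expressed genes found in it. Of the hepatocyte list 6 of 18 expressed genes in the table had it. Over all 35116 promoters the share was 6.23%. A match says only that the letters are there. The windows of 4 wide genes with a match follow, 5′ to 3′ on the strand of the gene, with the half-site or its reverse complement in capitals.
FABP1, chr2:88128063-88128312, minus strand: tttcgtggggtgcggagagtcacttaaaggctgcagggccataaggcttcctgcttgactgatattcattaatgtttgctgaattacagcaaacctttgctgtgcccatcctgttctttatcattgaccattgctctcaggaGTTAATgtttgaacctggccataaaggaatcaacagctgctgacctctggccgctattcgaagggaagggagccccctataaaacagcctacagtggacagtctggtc
AFP, chr4:73435971-73436220, plus strand: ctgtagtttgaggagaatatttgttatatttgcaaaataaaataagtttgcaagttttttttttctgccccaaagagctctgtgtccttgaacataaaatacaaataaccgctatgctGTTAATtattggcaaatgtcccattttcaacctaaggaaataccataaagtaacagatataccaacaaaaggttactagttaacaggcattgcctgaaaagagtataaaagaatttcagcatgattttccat
SERPINA1, chr14:94388603-94388852, minus strand: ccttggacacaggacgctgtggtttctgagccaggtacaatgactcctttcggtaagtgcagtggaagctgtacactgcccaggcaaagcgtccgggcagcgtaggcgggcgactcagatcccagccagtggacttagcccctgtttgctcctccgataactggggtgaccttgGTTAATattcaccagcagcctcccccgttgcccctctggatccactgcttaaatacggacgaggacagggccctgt
FGB, chr4:154562730-154562979, plus strand: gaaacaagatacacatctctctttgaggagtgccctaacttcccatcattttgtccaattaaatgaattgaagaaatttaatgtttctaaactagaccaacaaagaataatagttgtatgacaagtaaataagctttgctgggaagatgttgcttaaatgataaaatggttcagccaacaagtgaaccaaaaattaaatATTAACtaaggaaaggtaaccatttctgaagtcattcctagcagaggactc
The FABP1 and AFP matches begin 108 and 132 bases before the start, and FGB and SERPINA1 have a further start in the table, for which FGB has the same match and SERPINA1 none.

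Cardiac lists mostly ran the other way. Replicates 1 and 3 both stood above replicates 2 and 4 in all 21 expressed sarcomere genes, against 28.0% of all expressed genes, and in all 7 genes of the natriuretic peptide and stress list. They did so in 11 of 15 calcium cycling genes, 6 of 8 ion channel and connexin genes, 7 of 9 ventricular and 5 of 9 atrial genes, and in 10 of 16 cardiac transcription factors, of which 3 had the opposite. Some cardiac lists share members, NPPA among them, so these counts are not separate. The opposite, replicates 2 and 4 both above 1 and 3, held in 15 of 17 endoderm and liver genes, against 23.5% of all expressed genes. Lists of other kinds had these orders too. Replicates 2 and 4 stood above in 7 of 8 metallothionein and 48 of 79 cytosolic ribosomal protein genes, with 0 the other way. Replicates 1 and 3 did in 11 of 13 mitochondrially encoded mRNAs, with 0 the other way, and in 10 of 12 smooth muscle genes, with 1. The size was smaller in sarcomere genes than in the liver genes, with a median SD of 0.355 and 2 wide members. LMOD2, leiomodin, which nucleates actin filaments in heart, had 8.56, 2.90, 7.79 and 3.17 FPKM, and TCAP, the titin cap, had 32.6, 11.7, 31.6 and 18.2 FPKM. Without replicate 2, 1 of them was wide. MYBPC3, myosin-binding protein C, had 171, 105, 174 and 109 FPKM, and CACNA1C, the L-type calcium channel, was wide at 21.3, 11.3, 19.6 and 8.73 FPKM, though not on normalized counts nor without replicate 4. The part of cell make-up in these orders was not tested.

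**Figure D4:**
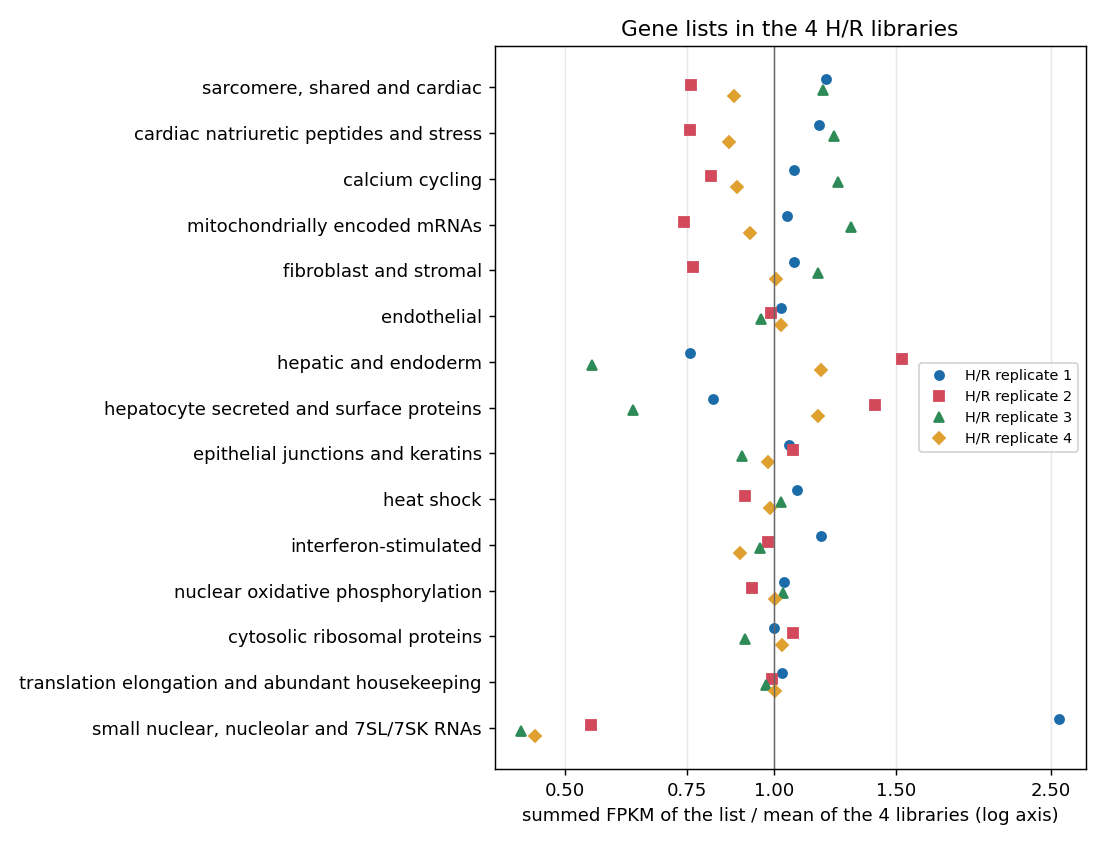
Summed FPKM of 15 gene lists (rows) in each H/R library (symbols), divided by the mean of the 4 libraries, on a log axis. The sarcomere list runs over 1.56-fold with replicate 2 lowest, the endoderm and liver list over 2.80-fold with replicate 2 highest, the ribosomal protein list over 1.17-fold, and the small nuclear RNA list over 5.92-fold with replicate 1 highest.

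Interferon-stimulated genes were mostly highest in replicate 1. They are switched on by interferon signalling and act against viruses. All 25 listed genes passed and 17 of them were highest in replicate 1, against 24.98% of all expressed genes. Replicates 1 and 3 both stood above 2 and 4 in 14, against 28.0% of all expressed genes, as in the sarcomere genes. Of the 25, 9 were wide, against 2.57% of all expressed genes, with a median SD of 0.351. IFIT1, which binds foreign RNA caps, had 64.3, 19.1, 42.2 and 19.96 FPKM. MX1, a dynamin-like GTPase, had 83.4, 28.2, 39.2 and 27.3 FPKM, and IFI44 had 7.97, 2.30, 4.33 and 1.99 FPKM. In each of these replicate 1 was highest and replicate 3 second, and replicates 2 and 4 lay close together. ISG15, a ubiquitin-like protein, was the highest classical member at 494, 327, 278 and 249 FPKM, and B2M, the light chain of HLA class I, had 946, 911, 999 and 936 FPKM. Without replicate 1 only 3 members were wide. At the IFIT cluster of chromosome 10 (chr10:89283694-89421605) IFIT1, IFIT2 and IFIT3 were wide and IFIT5 was not, at 6.53, 4.21, 6.92 and 4.72 FPKM. IFIT2 and IFIT3 were highest in replicate 3, with 9.77, 3.68, 10.1 and 3.59 FPKM for IFIT3, and IFIT2 was wide neither without replicate 3 nor without replicate 4.

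The core of the interferon-stimulated response element, GAAANNGAA with N for any base, stood on either strand in the 250-base windows of 11 of 19 expressed list members in the promoter table, against 7.33% of the 9511 expressed genes and 6.88% of all 35116 promoters. The windows of a pair of wide members are shown with the core or its reverse complement in capitals, overlapping matches merged.
IFIT1, chr10:89392373-89392622, plus strand: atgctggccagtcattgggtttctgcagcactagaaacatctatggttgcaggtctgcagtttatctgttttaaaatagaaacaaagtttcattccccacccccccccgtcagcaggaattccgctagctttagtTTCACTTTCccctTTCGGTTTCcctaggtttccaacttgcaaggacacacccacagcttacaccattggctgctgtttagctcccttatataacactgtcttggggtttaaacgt
IFI44, chr1:78649539-78649788, plus strand: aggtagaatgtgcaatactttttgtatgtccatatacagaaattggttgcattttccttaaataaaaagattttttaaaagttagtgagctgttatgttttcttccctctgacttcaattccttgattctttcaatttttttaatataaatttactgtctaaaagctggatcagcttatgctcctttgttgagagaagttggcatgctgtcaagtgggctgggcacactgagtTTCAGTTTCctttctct
IFIT1 has 2 matches, which begin 115 and 102 bases before the start, and IFI44 has 1. IFI44 has a further, nearby start in the table with the same match.

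**Figure D5:**
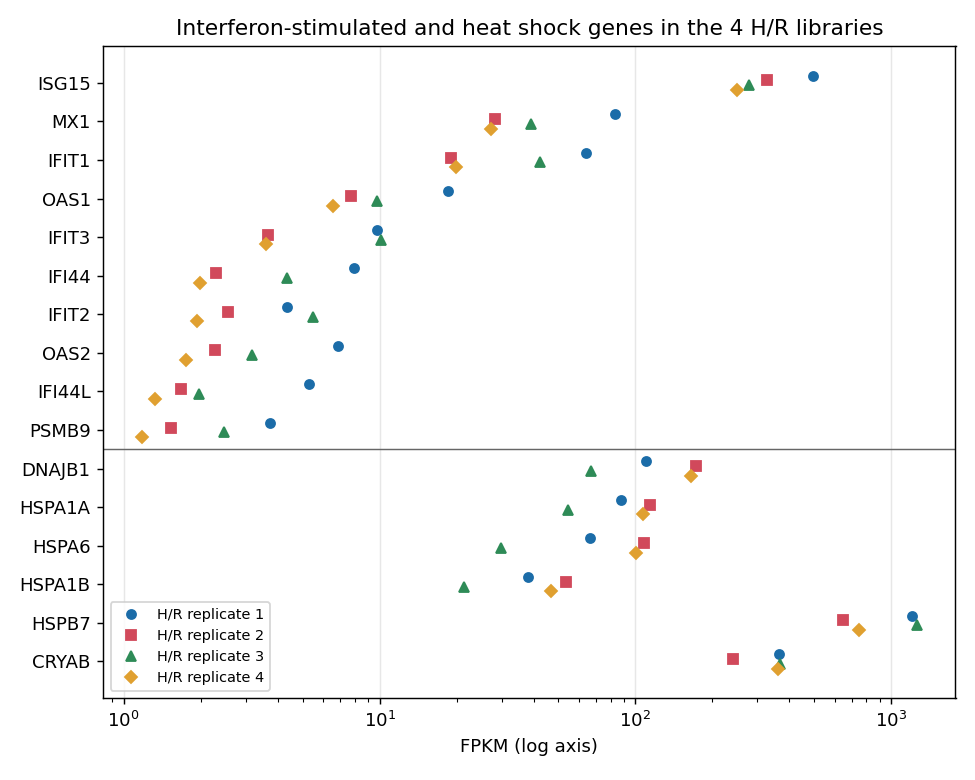
FPKM (log axis) of 10 interferon-stimulated genes above the line and 6 heat shock genes below it, in the 4 H/R libraries (symbols). MX1 and IFIT1 are highest in replicate 1, and DNAJB1, HSPA1A, HSPA6 and HSPA1B are lowest in replicate 3.

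Stress genes split by kind. All 19 heat shock genes passed and 4 were wide, against 2.57% of all expressed genes, namely HSPA6, HSPA1A and HSPA1B, which encode inducible Hsp70 proteins, and DNAJB1, an Hsp40 partner. HSPA6 had 66.2, 108, 29.8 and 100.4 FPKM and DNAJB1 had 110.0, 172, 67.2 and 165 FPKM. Both were lowest in replicate 3, and without that library none of the 4 was wide. HSPA1A and HSPA1B are nearly identical copies whose reads cannot be split with certainty, with 88.1, 114, 54.5 and 107 FPKM for HSPA1A. The small heat shock gene HSPB7, abundant in heart, went in the order of the sarcomere genes at 1206, 648, 1258 and 751 FPKM. The heat shock element as 2 facing repeats, GAANNTTC, was found in the windows of 12 of 17 list members in the table and in those of all 4 wide ones, against 5.71% of the 9511 expressed genes and 5.78% of all promoters. The windows of 2 are given with the element in capitals.
HSPA6, chr1:161524290-161524539, plus strand: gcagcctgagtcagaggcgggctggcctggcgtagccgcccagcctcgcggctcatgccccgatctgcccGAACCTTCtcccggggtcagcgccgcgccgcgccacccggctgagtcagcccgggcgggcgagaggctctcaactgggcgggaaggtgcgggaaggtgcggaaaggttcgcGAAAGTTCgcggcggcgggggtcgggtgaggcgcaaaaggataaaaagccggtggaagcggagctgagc
DNAJB1, chr19:14518398-14518647, minus strand: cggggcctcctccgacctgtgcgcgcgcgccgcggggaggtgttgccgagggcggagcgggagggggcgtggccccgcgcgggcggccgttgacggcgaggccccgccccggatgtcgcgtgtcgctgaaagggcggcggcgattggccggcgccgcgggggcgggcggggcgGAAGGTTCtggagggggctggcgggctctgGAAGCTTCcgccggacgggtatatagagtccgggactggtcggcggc
The DNAJB1 window is 1 of 3 in the table, and the other 2 hold no match.

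Immediate early genes had 5 wide of 23 passed, against 2.57% of all expressed genes, and none without replicate 3. FOS had 18.01, 26.3, 10.5 and 28.3 FPKM and ATF3, an ATF family stress factor, had 57.3, 85.2, 37.8 and 89.6 FPKM, and both were lowest in replicate 3. Cytokine genes had 5 wide of 22 passed, against the same background, with 2 left without replicate 2 and 3 without replicate 4. GDF15, a stress-induced TGF-β family hormone, had 80.3, 146, 50.4 and 104 FPKM, and CCL20 had 44.4, 90.1, 43.4 and 88.8 FPKM, while PTX3, a pentraxin, and IL1B were highest in replicate 4 at 55.4 and 33.7 FPKM. HMOX1, heme oxygenase, was the wide member of the redox and iron list at 9.82, 17.7, 7.82 and 15.4 FPKM, though neither without replicate 2 nor without replicate 3. GPX4, which detoxifies lipid peroxides, had 279.9, 287, 248 and 274 FPKM and was not.

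Replicate 1 was highest in most of the short structured RNAs that were expressed. The libraries were made from poly(A) RNA, and how much of these RNAs such a method carries over was not tested. RMRP, the RNA of RNase MRP, had 25.2, 1.91, 2.00 and 1.79 FPKM, RPPH1, that of RNase P, had 18.7, 1.62, 2.43 and 1.44 FPKM, and RN7SL1, the signal recognition particle RNA, had 158, 33.2, 24.4 and 19.7 FPKM. RMRP had 103, 8.48, 8.53 and 8.58 normalized counts. The 6 expressed members of this list were all wide, against 2.57% of all expressed genes. Of them 5 were highest in replicate 1, against 24.98% of all expressed genes, and none was wide without that library. The other 14 of the 20 listed did not pass. RNU6ATAC, a minor spliceosome RNA, was the sixth, at 10.2, 13.9, 21.7 and 16.2 FPKM.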

How the data were processed

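RNA of H/R hiPS-CMs was measured by poly(A) RNA sequencing (TruSeq Stranded mRNA). Reads were trimmed (Trimmomatic 0.39), mapped to GRCh38.p5 (HISAT2 2.1.0) and counted (featureCounts 2.0.6) by the authors, who also name Cuffdiff 2.2.1. Their gene annotation was not given in the sources used here. Deposited FPKM are normalized between libraries by the authors. The deposited normalized counts are a signal scaled by 1 factor for each library, with 1 fragment worth 0.944 to 1.22. Of their values 74.8% to 76.4% are whole multiples (within 0.02) of that worth, so no count model was used. A deposited summary holds reads and percent mapped for each library (39854257 to 48898147 reads). Not used were 8 columns of H/R+BA libraries, 4 of the authors' group means, 2 of the authors' fold changes and p-values, and 9 libraries of other samples in the summary.

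SD and range were computed on log2(FPKM + 1), pseudocount 1, in Python 3.11.15 with pandas 2.3.3 and numpy 2.4.6, and the calculation was tested on simulated data. No test was run, because 1 group has no contrast. Counting error was not separated from the spread. Coordinates came from GENCODE 44 by gene ID (99.3% of expressed genes) and promoter windows from RefSeq (GRCh38). The members and 43 gene lists were chosen with earlier results of these data known, and 2 lists (epithelial, hepatocyte) after the values were seen. Genes named are the 20 protein-coding and 10 other genes of highest mean FPKM, the 30 and 10 of largest SD without clone names, the cardiac lists, up to 4 highest and 4 wide members of each other list and its members at 0, and up to 5 steadiest genes above 100 FPKM. Other members were named after their values were seen, and some that the rule names are not reported here. Alternatives were pseudocount 0.1, other filters, the normalized counts, 2 rescalings and leaving out each library.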

Additional observations from a re-analysis of the deposited data

Results flagged for a closer look

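Among 355 values examined (named genes, list sums and library measures), 13 had 1 library set apart, its gap to the nearest other library, as a share of the whole range, being over Dixon's 95% critical value for 4 samples. Among unselected, normally distributed values this cut sets apart about 1 in 20, and 13 of 355 is no more than that. Some of these genes were picked for a large SD, so the count cannot decide on chance. The values are not independent. Gene values were taken as FPKM here, and on log2(FPKM + 1) only 2 wide genes were set apart high in replicate 1.

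Replicate 1 was high in 6. RMRP had 25.2 FPKM there, against 1.79 to 2.00 in the others, SNORD3A 50.9 against 4.38 to 9.44, RPPH1 18.7 against 1.44 to 2.43, and RN7SL1 158 against 19.7 to 33.2. The summed FPKM of the small nuclear, nucleolar and 7SL/7SK RNAs was 421.9, against 71.3 to 89.8, and that of the epicardial list, mostly KRT8 and KRT18, was 4288, against 3695 to 3766. CCL2, a chemokine, was low in replicate 1 at 569 FPKM, against 674 to 686.

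Replicate 2 was low in 3 genes. CRYAB, a small heat shock protein of muscle, had 242 FPKM, against 360.0 to 366, ACTA1, skeletal actin, had 156 FPKM, against 269 to 291, and KCNJ11, a potassium channel subunit, had 0.602 FPKM, against 0.770 to 0.794. Replicate 4 was high in 2 genes. GJA1, connexin 43, had 103 FPKM, against 81.5 to 85.1, and MT1G, a metallothionein, had 87.7 FPKM, against 44.6 to 49.7. Replicate 3 was low in reads, with 39854257 against 47378189 to 48898147.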

How the results depend on the processing

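The 340 wide genes became 612 with a pseudocount of 0.1, 795 with no filter and 561 on the deposited normalized counts, where 308 of the 340 were wide too. The share of wide genes lowest in replicate 3 was 67.9%, and 45.3% with no filter. On normalized counts, which are not divided by length, the mitochondrial mRNA share was 6.78% against 15.5%, the TNNI1 share 91.0% against 88.0% and the MYL7 share 77.4% against 83.3%. The 50 highest protein-coding genes outside the mitochondrial genome held 15.3%, against 30.1% for all genes. With 1 library left out, the number of wide genes ranged from 158 to 298. Wide members then ranged from 1 to 2 for the sarcomere list, from 4 to 11 for the endoderm and liver list, and from 3 to 9 for the interferon list. Of the 96 alternative values of these summary results 82 stayed within 1.5-fold or 1 SD. SNHG25 had an SD of 2.65 on FPKM and 0.19 on normalized counts. No paired analysis was possible because 1 group is described and nothing is compared between groups. With 4 libraries of 1 line an SD is itself imprecise, and 29 of the wide genes had under 30 normalized counts in some library.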
